A study of Mus musculus with 6 samples.

Results

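Cells build cholesterol from acetyl-CoA through the mevalonate pathway, squalene and lanosterol, and build fatty acids from the same precursor. Both routes are controlled by SREBP transcription factors, which are held in the endoplasmic reticulum by the escort protein SCAP and the INSIG anchors while sterol is plentiful, and which are carried to the Golgi and cut free when it runs low. Neurons and neuroblastoma cells need sterol and fatty acids for the membrane of growing neurites, and most neural cholesterol is made locally. The 34 genes described here were chosen by symbol, as enzymes and regulators of cholesterol and fatty acid synthesis and of sterol movement. All 34 were found among the 21878 rows of the expression table, and 33 passed the filter used for testing, a mean of at least 1 FPKM over all libraries. FPKM counts the sequenced fragments of a gene scaled to its transcript length and to the library's total, so levels can be compared between genes per length.

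The libraries came from Neuro-2a, a mouse neuroblastoma line with a sympathetic neuron-like identity. There were 3 groups of 2 libraries: cells overexpressing the long noncoding RNA lncPim1, cells in which RNA interference was directed at lncPim1, called knockdown below, and control cells labelled wild type. The labels name no vector, hairpin or scrambled RNA, no duration and no age of culture, and it is not stated that replicate libraries come from independent cultures. The p-values thus cover library-to-library spread alone, and that spread could be technical. In bulk RNA of this kind, fewer cells of a type and less RNA per cell cannot be told apart. The study's title also concerns a neuronal injury by ACR, which the labels of these libraries do not mention.

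Summed FPKM ranged from 272528 to 305463 per library. Spearman correlations over tested genes were 0.995 to 0.997 within a group, 0.992 to 0.994 between overexpression and control libraries, and 0.976 to 0.984 between the knockdown libraries and the others. No row of the table is named lncPim1, so its own level was not analysed here. Of 13 markers of sympathetic identity, 10 averaged at least 1 FPKM, and the list summed to 803 and 914 FPKM under overexpression, 772 and 743 FPKM under knockdown, and 945 and 906 FPKM in control cells. Phox2a, a transcription factor of that identity, had 184 and 211 FPKM under overexpression, 147 and 151 FPKM under knockdown, and 237 and 210 FPKM in control cells. Hand2, another, had 99.3 and 111 FPKM under overexpression, 68.3 and 72.5 FPKM under knockdown, and 108 and 106 FPKM in control cells. Both knockdown libraries thus lay below both controls in the list's sum and in these genes, but not in every marker listed. Th had 5.67 and 7.24 FPKM under overexpression, 11.9 and 9.32 FPKM under knockdown, and 4.99 and 4.67 FPKM in control cells. Chgb had 259 and 218 FPKM under knockdown and 244 and 228 FPKM in control cells, and these groups overlapped. Markers of fibroblasts, macrophages, hepatocytes and adipocytes summed to at most 2.82 FPKM per list and library. A list of 13 digestive tract transcripts summed to 25.4 and 36.5 FPKM under overexpression, 0.623 and 0.584 FPKM under knockdown, and 32.7 and 24.5 FPKM in control cells, and Reg1, Prap1 and Fabp1 were listed at 0 in both knockdown libraries. The part of the identity markers and of the digestive tract transcripts in the results below was not tested.

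The module was expressed throughout. Averaged over the groups, 7 members stood above 50 FPKM, 18 between 10 and 50 FPKM, 8 between 1 and 10 FPKM, and 1 below 1 FPKM. The highest level belonged to Scd2, a stearoyl-CoA desaturase that makes monounsaturated fatty acids and is the main brain form, at 317 and 370 FPKM under overexpression, 344 and 269 FPKM under knockdown, and 331 and 288 FPKM in control cells. Its paralog Scd1, the main liver form, lay far lower, at 4.37 and 5.09 FPKM under overexpression, 4.41 and 3.49 FPKM under knockdown, and 4.51 and 2.89 FPKM in control cells. The groups overlapped for both desaturases, and reads that fit both copies cannot be assigned from these files. Next in level came Acly, Srebf2, Sqle, Fdps, Hmgcs1 and Msmo1. Abcg1, a sterol exporter abundant in macrophages, was the member left untested, at 0.0496 and 0.00948 FPKM under overexpression, 0.0247 and 0.00775 FPKM under knockdown, and 0.0169 and 0.0519 FPKM in control cells. Abca1, the exporter that loads cholesterol onto apolipoproteins, was measurable at 2.95 to 3.65 FPKM over the libraries.

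To ask what knockdown of lncPim1 changed in this module, knockdown cells were compared with control cells. Members changed in both directions, as did the tested genes at large, so the division is not particular to this module. Among enzymes of cholesterol synthesis, Lss, Pmvk, Mvd and Msmo1 rose, as did the sterol sensor Insig1 and the lysosomal sterol carrier Npc2. The fatty acid enzymes Acly, Acaca, Elovl6 and Fasn fell, together with the cholesterol enzymes Idi1 and Ebp and the regulators Scap, Srebf1 and Srebf2. In the limma fit across 10721 genes, with Benjamini-Hochberg adjustment and a threshold of 0.05, 6 of 33 members were called higher and 9 lower, or 45.5% of members, where 46.2% of all tested genes were called. By direction, 18.2% of members and 14.8% of all genes were higher, and 27.3% of members and 31.3% of all genes were lower, so the share called lay near the background. Both knockdown libraries lay above both controls for 14 members, where 26.5% of all genes did so, and below both for 12 members, where 47.9% of all genes did. The median log2 fold change was 0.07 over the members and -0.07 over all tested genes.

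**Figure D1:**
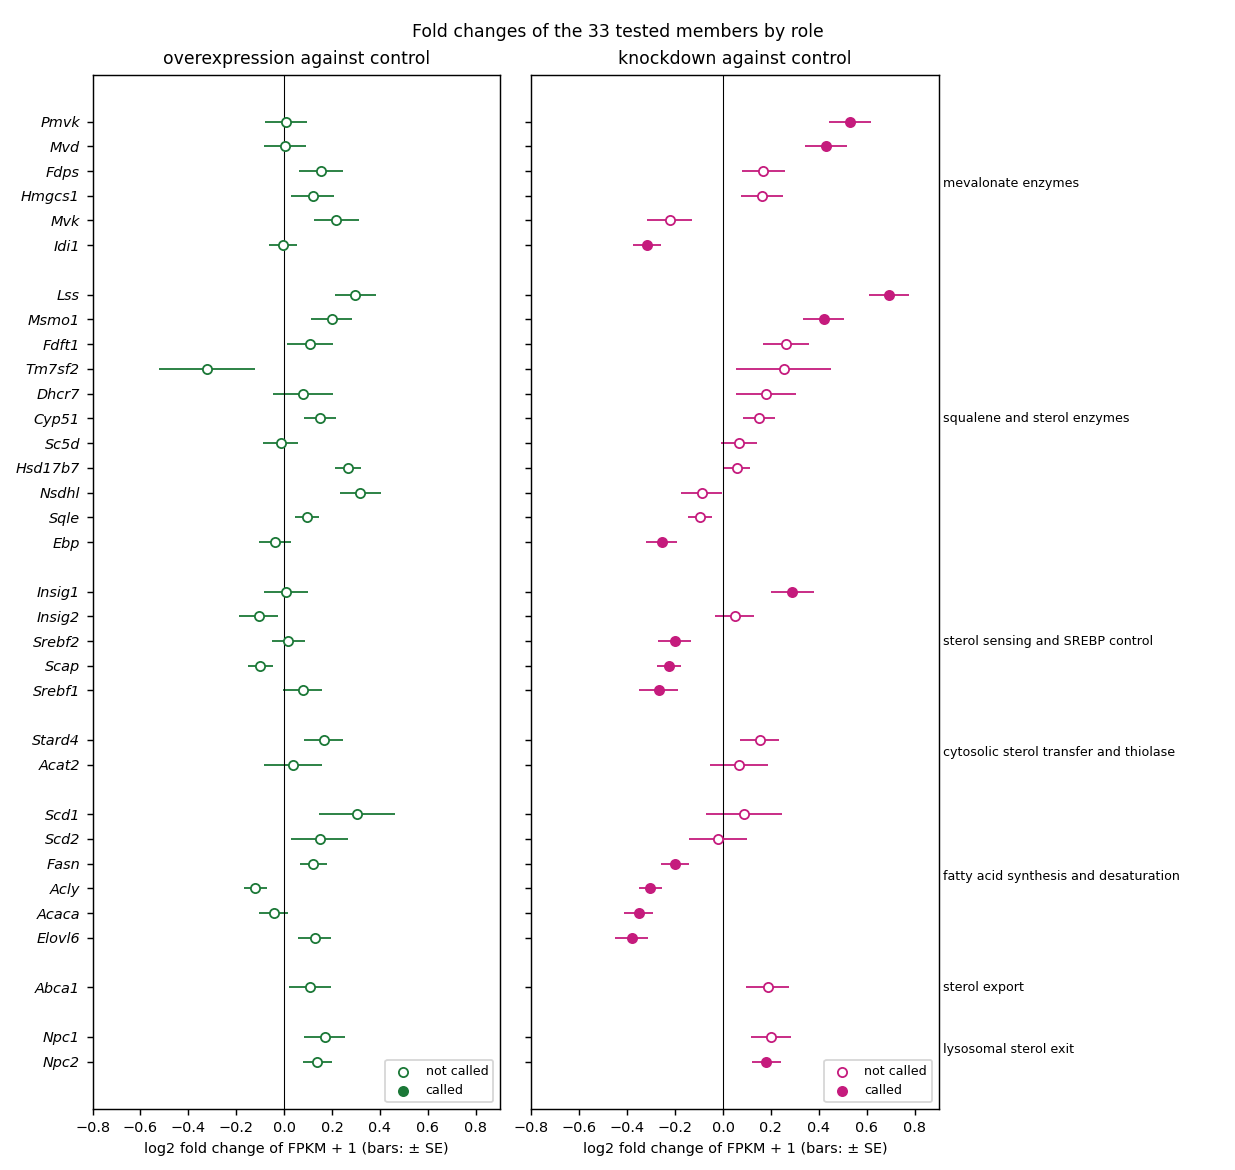
Log2 fold changes of FPKM + 1 (horizontal axis) with their standard errors for the 33 tested members, grouped by role, for overexpression against control on the left and knockdown against control on the right. Filled points passed the adjusted p threshold of 0.05: 0 members on the left and 15 on the right, where Lss at 0.69 lies highest and Elovl6 at -0.38 lowest.

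Of the 6 mevalonate enzymes, 2 were higher under knockdown, 1 was lower and 3 were not called. That is 33.3% higher and 16.7% lower, where 14.8% and 31.3% of all tested genes were. Pmvk, the phosphomevalonate kinase, stood at 40.5 and 35.1 FPKM in knockdown cells, against 26.6 and 25.01 FPKM in control cells. Both knockdown libraries lay above both controls, and the log2 fold change was 0.53 ± 0.09 (SE; limma, adjusted p = 0.00164). Mvd, which decarboxylates the next intermediate to isopentenyl diphosphate, stood at 28.4 and 24.0 FPKM in knockdown cells and at 20.1 and 18.2 FPKM in control cells, again without overlap (log2 fold change 0.43 ± 0.09; limma, adjusted p = 0.0042). Idi1, the isomerase that acts directly after Mvd, went the other way. It had 19.0 and 17.8 FPKM in knockdown cells, against 22.7 and 23.7 FPKM in control cells (-0.32 ± 0.06; limma, adjusted p = 0.0027). Successive steps of the pathway thus moved in opposite directions.

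The remaining mevalonate enzymes did not pass the test. Mvk, the mevalonate kinase one step before Pmvk, stood at 7.51 and 6.32 FPKM in knockdown cells and 8.73 and 7.72 FPKM in control cells (-0.22 ± 0.10; limma, adjusted p = 0.0848). Hmgcs1, the HMG-CoA synthase at the head of the pathway, stood at 77.3 and 63.2 FPKM in knockdown cells, against 61.3 and 63.5 FPKM in control cells, so that knockdown library 1 lay above and library 2 just below the controls. Fdps, the farnesyl diphosphate synthase, had 94.5 and 82.7 FPKM in knockdown cells and 79.5 and 77.6 FPKM in control cells (0.17 ± 0.09; limma, adjusted p = 0.161).

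In the 11 squalene and sterol enzymes, 2 were higher, 1 was lower and 8 were not called. The shares were 18.2% higher and 9.09% lower, against 14.8% and 31.3% of all tested genes. Lss, the lanosterol synthase that closes the sterol rings, had the largest rise of the module. It stood at 24.1 and 19.97 FPKM in knockdown cells, against 13.7 and 12.7 FPKM in control cells (0.69 ± 0.08; limma, adjusted p = 0.000433). Msmo1, which removes the methyl groups at carbon C-4, had 77.7 and 62.8 FPKM in knockdown cells and 51.3 and 52.6 FPKM in control cells (0.42 ± 0.09; limma, adjusted p = 0.00441). The groups did not overlap for either enzyme. Ebp, the sterol isomerase near the end of the pathway, was lower at 10.3 and 10.4 FPKM in knockdown cells, against 12.1 and 13.0 FPKM in control cells (-0.26 ± 0.07; limma, adjusted p = 0.0126). Its call was lost on median log ratio scaling and without control 2, with limma adjusted p between 0.0106 and 0.0902 over the alternatives.

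Sqle, the squalene epoxidase and a rate-limiting step, was the most abundant of these enzymes. Its level was 89.7 and 83.6 FPKM in knockdown cells and 91.4 and 94.1 FPKM in control cells (-0.10 ± 0.05; limma, adjusted p = 0.146). Fdft1, the squalene synthase, lay just outside the threshold with 14.7 and 11.7 FPKM in knockdown cells, against 10.7 and 10.9 FPKM in control cells (0.26 ± 0.10; limma, adjusted p = 0.0537). The other uncalled members were Cyp51, the lanosterol demethylase, Tm7sf2, Dhcr7, Sc5d and Hsd17b7, with log2 fold changes from 0.06 to 0.25, and Nsdhl at -0.09. For Fdft1, Cyp51, Tm7sf2 and Hsd17b7 both knockdown libraries lay above both controls, where 26.5% of all tested genes did so. For Sqle and Nsdhl both lay below both controls, where 47.9% of all tested genes did.

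Of the 5 genes of sterol sensing and SREBP control, 1 was higher and 3 were lower. With so few genes the shares were 20% and 60%, where 14.8% and 31.3% of all tested genes were called. Insig1, which anchors SCAP in the endoplasmic reticulum and is itself an SREBP target, had 61.8 and 51.4 FPKM in knockdown cells and 47.5 and 44.4 FPKM in control cells (0.29 ± 0.09; limma, adjusted p = 0.0291). Its relative Insig2 was not called, at 10.3 and 9.44 FPKM in knockdown cells and 8.75 and 10.3 FPKM in control cells (0.05 ± 0.08; limma, adjusted p = 0.666). Those groups overlapped. The genes for the transcription factors themselves were lower. Srebf1, whose product drives mainly fatty acid genes, stood at 42.3 and 38.5 FPKM in knockdown cells, against 50.03 and 47.6 FPKM in control cells (-0.27 ± 0.08; limma, adjusted p = 0.025). Srebf2, whose product drives mainly cholesterol genes, stood at 93.0 and 80.4 FPKM in knockdown cells and 101 and 98.6 FPKM in control cells (-0.20 ± 0.07; limma, adjusted p = 0.0401). Scap, the escort, had 18.7 and 17.9 FPKM in knockdown cells, against 21.4 and 21.6 FPKM in control cells (-0.22 ± 0.05; limma, adjusted p = 0.00715). Messenger RNA levels do not show how much SREBP protein is cut. Median log ratio scaling and quantile normalization each ended the calls of Srebf1, Srebf2 and Scap, and quantile normalization put Srebf2 at a log2 fold change of 0.005. Leaving out control 1 or control 2 ended the calls of Insig1, Srebf1 and Srebf2, as did leaving out knockdown 1 for Insig1 and knockdown 2 for Srebf1 and Srebf2. Over the alternatives the limma adjusted p reached 0.172 for Insig1, 0.22 for Srebf1 and 0.951 for Srebf2.

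Of the 6 genes of fatty acid synthesis and desaturation, 4 were lower and 0 higher under knockdown. The share called lower was 66.7% of these few genes, where 31.3% of all tested genes were lower and 14.8% higher. The uncalled ones were Scd1, at a log2 fold change of 0.09 ± 0.16, and Scd2, the most abundant, at -0.02 ± 0.12. Summed over the 6 genes, FPKM was 512 and 428 in knockdown cells and 535 and 484 in control cells, and the groups overlapped. Acly, which splits citrate into the cytosolic acetyl-CoA that feeds both pathways, had 114 and 108 FPKM in knockdown cells, against 139 and 136 FPKM in control cells (-0.30 ± 0.05; limma, adjusted p = 0.00146). Acaca, the carboxylase that commits acetyl-CoA to fatty acids, had 7.20 and 6.90 FPKM in knockdown cells and 9.58 and 8.996 FPKM in control cells (-0.35 ± 0.06; limma, adjusted p = 0.00212). Elovl6, which lengthens palmitate to stearate, had 10.1 and 9.43 FPKM in knockdown cells, against 13.5 and 12.6 FPKM in control cells (-0.38 ± 0.07; limma, adjusted p = 0.00243). Every knockdown library lay below both controls for these genes. Fasn, the fatty acid synthase, had 33.1 and 30.8 FPKM in knockdown cells and 37.7 and 36.0 FPKM in control cells (-0.20 ± 0.06; limma, adjusted p = 0.0201). Leaving out control 1 or knockdown 2 ended this call, and so did either rescaling of the libraries, with limma adjusted p between 0.0169 and 0.404 over the alternatives.

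In sterol movement, Npc2, the lysosomal protein that hands cholesterol to Npc1, had 27.9 and 26.6 FPKM in knockdown cells and 23.1 and 24.8 FPKM in control cells (0.18 ± 0.06; limma, adjusted p = 0.0342). The call was lost without control 1 and without knockdown 1, among 5 of the 16 alternatives. Npc1, the membrane protein that exports lysosomal cholesterol, had 9.93 and 8.48 FPKM in knockdown cells, against 7.38 and 8.37 FPKM in control cells (0.20 ± 0.08; limma, adjusted p = 0.0814). Abca1, at 3.60 and 3.501 FPKM in knockdown cells and 2.95 and 3.05 FPKM in control cells, was not called either (0.19 ± 0.09; limma, adjusted p = 0.115). Stard4, a cytosolic sterol carrier, and Acat2, the cytosolic thiolase that condenses acetyl-CoA, had log2 fold changes of 0.15 and 0.07 and were not called.

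**Figure D2:**
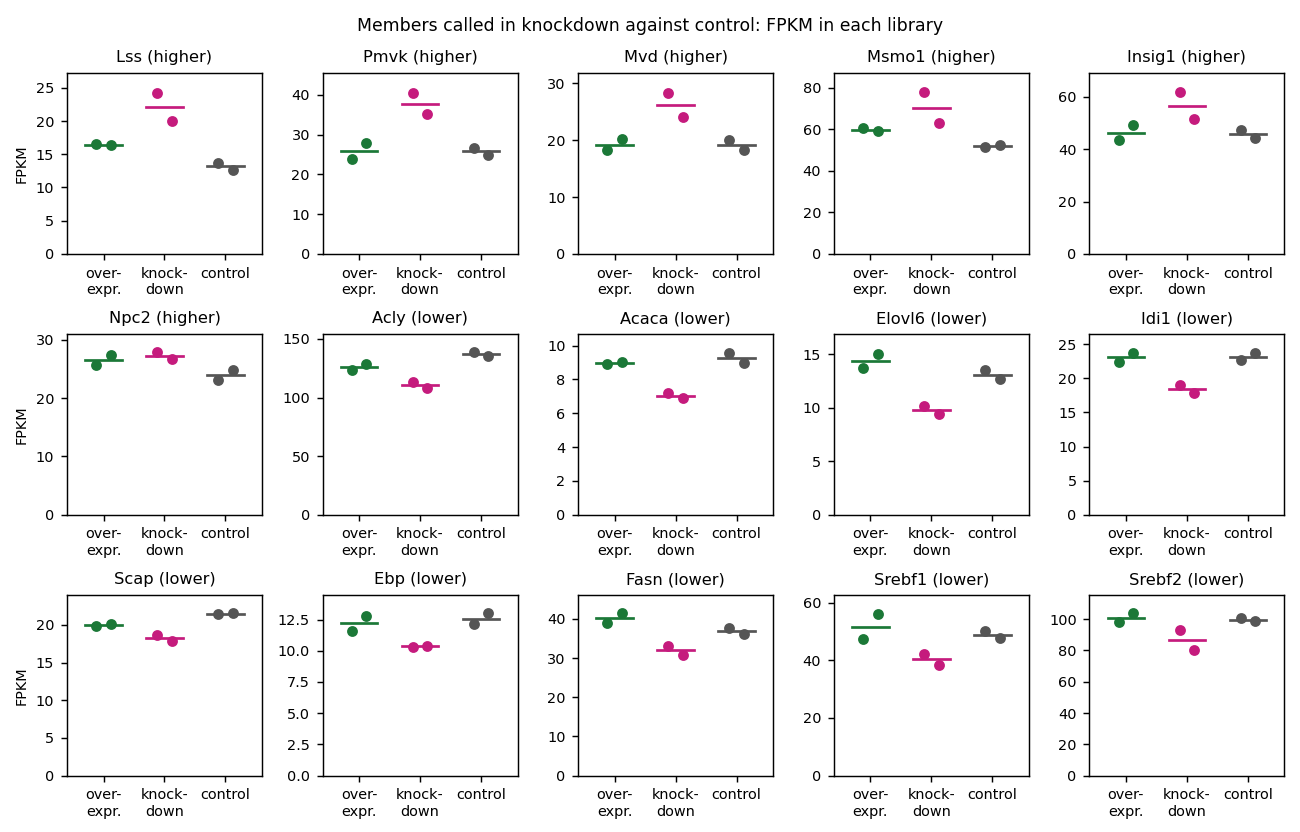
FPKM (vertical axes, from 0) in each library for the 15 members called in knockdown against control, with overexpression, knockdown and control libraries from left to right and a line at each group's mean. In every panel both knockdown libraries lie on the same side of both control libraries, as with Lss at 24.1 and 19.97 FPKM against 13.7 and 12.7 FPKM.

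The balance between higher and lower members depended on scaling. After median log ratio scaling, 13 members were called higher and 4 lower, where 21.1% of all genes were higher and 20.9% lower. Quantile normalization gave 12 higher and 5 lower, where 18.7% of all genes were higher and 21.4% lower. The members that stayed called in the same direction under all 16 alternatives were Lss, Pmvk, Mvd and Msmo1 above control and Acly, Acaca, Elovl6 and Idi1 below it, 8 of the 15. The balance also moved with single libraries. Without knockdown 2 there were 11 higher and 6 lower members, where 12.8% of all genes were higher and 26.5% lower. Without knockdown 1 there were 4 higher and 10 lower members, where 10.4% of all genes were higher and 25% lower.

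The libraries within a group also differed along the module. In knockdown library 1, 31 of the 33 tested members were higher than in knockdown library 2, while 50.9% of all tested genes were. Their median gap was 0.19 on the log2 scale, against 0.003 over all genes. The 2 exceptions were Nsdhl and Ebp, at gaps of -0.03 and -0.01. Acat2 and Scd2 had the widest gaps, 0.36 and 0.35, and 16 members had gaps of at least 0.2. In the overexpression group the order was turned round, with 26 of 33 members lower in library 1 than in library 2 and a median gap of -0.13, against -0.003 over all genes. In control cells 20 of 33 members were higher in library 1, with a median gap of 0.03. For comparison, the middle 50% of all tested genes had gaps from -0.08 to 0.08 in the knockdown group. These counts carry no test, since the members share their libraries, and the part of this gap in the calls above was not tested beyond leaving out each library.

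**Figure D3:**
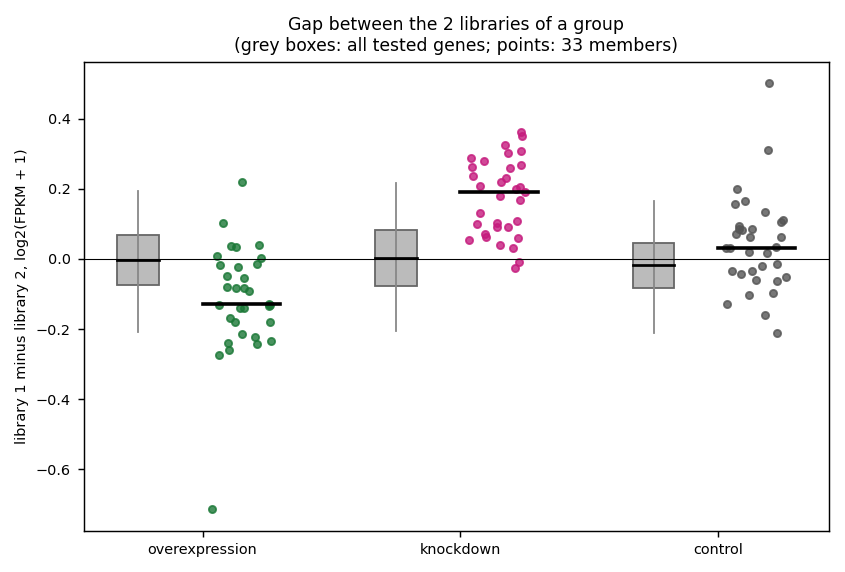
Difference between library 1 and library 2 of each group on the log2(FPKM + 1) scale (vertical axis) for the 33 tested members (points, with the median as a line), beside all tested genes (grey boxes: middle 50% with the median; whiskers: 5th to 95th percentile). The knockdown members sit almost entirely above 0 with a median of 0.19, and most overexpression members lie below 0 with a median of -0.13.

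Set against the mean of the control libraries, the median member stood at 0.03 and 0.16 in the overexpression libraries and at 0.18 and -0.02 in the knockdown libraries on the log2 scale. Summed over all 34 members, FPKM was 1319 and 1453 under overexpression, 1426 and 1221 under knockdown, and 1337 and 1274 in control cells. The groups overlapped in this sum. The squalene and sterol enzymes alone summed to 300.1 and 314 FPKM under overexpression, 334 and 291 FPKM under knockdown, and 282 and 279 FPKM in control cells. Every treated library thus lay above both controls in this sum, which weighs abundant enzymes most. Of these 11 enzymes, 0 were called under overexpression, and 2 were called higher and 1 lower under knockdown. Under knockdown Msmo1 had 77.7 and 62.8 FPKM, against 51.3 and 52.6 FPKM in control cells, while Sqle, the most abundant, lay below both controls. Sums of other roles did not all lie above the controls. The mevalonate enzymes summed to 218.1 and 249 FPKM under overexpression, 267 and 229 FPKM under knockdown, and 218.8 and 216 FPKM in control cells. The genes of sterol sensing and SREBP control summed to 218 and 238 FPKM, 226 and 198 FPKM, and 228 and 223 FPKM in the same order. Medians of the fatty acid genes were -0.21 and -0.30 in the knockdown libraries and 0.05 and 0.18 in the overexpression libraries, on the log2 scale against the control mean.

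**Figure D4:**
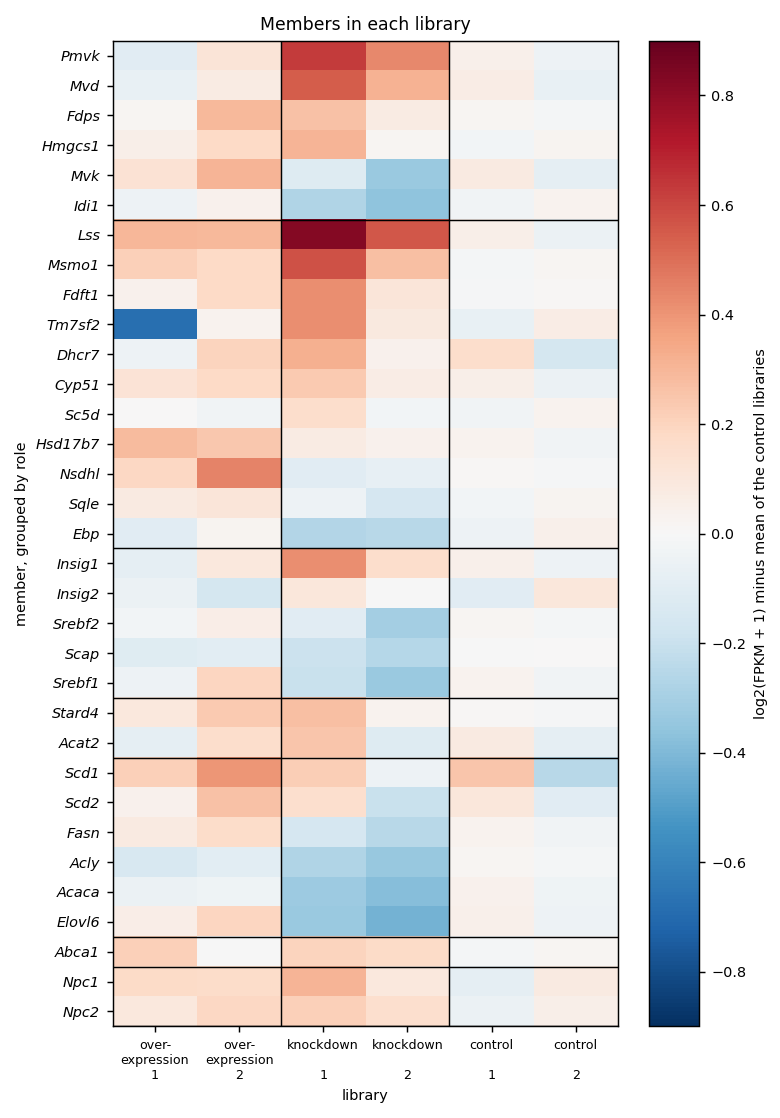
Level of each tested member in each library as log2(FPKM + 1) minus the mean of the control libraries (colour), with members in rows grouped by role and libraries in columns. Knockdown 1 is redder than knockdown 2 in nearly every row, while Acly, Acaca, Elovl6 and Idi1 are blue in both.

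Promoter sequence is shown for members that moved in opposite directions and for Hmgcs1. RefSeq promoter windows on build GRCm38.p6 were matched by symbol for 26 members, in 34 windows, and a stretch of 180 bases was read from each, at positions -230 to -51 relative to the annotated start. The matches searched on both strands were the sterol regulatory element TCACNCCAC, which SREBP binds, the E-box CACGTG, the CCAAT box, bound by NF-Y, and the GC box GGGCGG, bound by Sp1. NF-Y and Sp1 are known partners of SREBP. Of the stretches below, which read 5′ to 3′ on the gene's strand with every match in capitals, none overlaps an annotated exon in GENCODE release M21. Lss (chr10:76531375-76531554, plus strand), Mvd (chr8:122443473-122443652, minus strand) and Insig1 (chr5:28071182-28071361, plus strand) were called higher under knockdown. Acly (chr11:100528051-100528230, minus strand) and Fasn (chr11:120824598-120824777, minus strand) were called lower. Hmgcs1 (chr13:119690121-119690300, plus strand) was not called. Of the 26 members with a window, it is the only one with an exact match to the sterol regulatory element searched. Other forms of the element were not searched.
Lss: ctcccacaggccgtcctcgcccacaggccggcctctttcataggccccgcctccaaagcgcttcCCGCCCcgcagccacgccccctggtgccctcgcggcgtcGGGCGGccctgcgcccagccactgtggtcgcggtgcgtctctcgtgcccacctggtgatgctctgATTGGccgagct
Mvd: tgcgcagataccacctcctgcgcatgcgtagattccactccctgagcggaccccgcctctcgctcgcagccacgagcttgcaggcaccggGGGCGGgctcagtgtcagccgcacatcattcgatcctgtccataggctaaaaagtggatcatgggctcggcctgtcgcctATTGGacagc
Insig1: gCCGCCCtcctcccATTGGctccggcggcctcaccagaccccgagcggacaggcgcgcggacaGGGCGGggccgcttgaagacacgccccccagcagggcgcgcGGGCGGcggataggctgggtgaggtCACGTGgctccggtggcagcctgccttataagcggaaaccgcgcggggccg
Hmgcs1: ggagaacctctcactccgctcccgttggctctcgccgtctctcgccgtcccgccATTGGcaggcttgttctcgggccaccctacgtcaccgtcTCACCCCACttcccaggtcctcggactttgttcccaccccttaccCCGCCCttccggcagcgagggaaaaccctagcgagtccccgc
Acly: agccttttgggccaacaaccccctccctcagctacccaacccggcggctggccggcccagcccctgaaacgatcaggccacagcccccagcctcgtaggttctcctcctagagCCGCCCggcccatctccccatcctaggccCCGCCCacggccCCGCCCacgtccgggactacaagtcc
Fasn: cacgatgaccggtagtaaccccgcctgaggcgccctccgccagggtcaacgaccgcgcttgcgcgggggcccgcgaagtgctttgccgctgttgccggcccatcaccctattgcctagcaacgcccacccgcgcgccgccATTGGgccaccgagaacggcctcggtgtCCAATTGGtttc

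The Hmgcs1 element lies at position -137, with a CCAAT box at -176 and a GC box at -92. The searched form of the sterol regulatory element was found in 1 of 34 member windows and in 0.749% of all 32851 windows of the same length. The CCAAT box was in 16 of 34 member windows, 47.1%, against 26.5% of all windows. It was found for 6 of the 6 members called higher under knockdown and for 4 of the 9 called lower. The GC box was in 55.9% of member windows and 23.8% of all windows, for 5 of the 6 higher and 4 of the 9 lower members. Acly's stretch holds 3 GC boxes and no CCAAT box, and Fasn's holds 3 CCAAT matches, of which the pair nearest the start overlap on opposite strands. The E-box of Insig1 lies at -101, and E-boxes were in 14.7% of member windows and 4.06% of all windows. These matches describe letters in a short window.

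To ask what lncPim1 overexpression changed in the module, overexpressing cells were compared with control cells. No single member passed the test: 0 of 33 were called in either direction, where 0.69% of all tested genes were called higher and 0.849% lower. At an unadjusted p under 0.05, limma gave 6 members higher and 1 lower, 18.2% and 3.03% of members, against 7.89% and 9.21% of all genes. The median log2 fold change was 0.11 over members and -0.003 over all genes, and 25 members had a positive value. The 2 libraries differed in this. The median member stood 0.03 above the control mean in overexpression 1 and 0.16 above it in overexpression 2. Of 33 members, 26 were lower in library 1 than in library 2, so these counts are not independent of each other. For 15 members both overexpression libraries lay above both controls, 45.5%, where 23.3% of all genes did. Only Acly and Scap lay wholly below, where 26.2% of all genes did.

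The nearest to the threshold was Hsd17b7, a 3-ketosteroid reductase of late cholesterol synthesis. It stood at 17.3 and 16.8 FPKM under overexpression, against 14.4 and 13.7 FPKM in control cells (0.27 ± 0.05; limma, adjusted p = 0.0551). Nsdhl, the dehydrogenase that works in the same C-4 demethylation, had 8.07 and 9.87 FPKM under overexpression and 7.01 and 6.92 FPKM in control cells (0.32 ± 0.09; limma, adjusted p = 0.115). Lss had 16.5 and 16.4 FPKM under overexpression, against 13.7 and 12.7 FPKM in control cells (0.30 ± 0.08; limma, adjusted p = 0.128). Msmo1, Mvk and Npc2 were the other members with an unadjusted p under 0.05 and a positive value, at log2 fold changes of 0.20, 0.22 and 0.14. Acly stood at 124 and 128 FPKM under overexpression, against 139 and 136 FPKM in control cells (-0.12 ± 0.05; limma, adjusted p = 0.253). Tm7sf2, a sterol C-14 reductase, had the lowest value, at 6.397 and 11.1 FPKM under overexpression and 10.3 and 11.4 FPKM in control cells, and its libraries disagreed with each other (-0.32 ± 0.20; limma, adjusted p = 0.456).

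None of the 5 regulators passed the test under overexpression. Insig1 had 43.3 and 49.2 FPKM under overexpression and 47.5 and 44.4 FPKM in control cells. Srebf1 had 47.4 and 56.1 FPKM under overexpression, against 50.03 and 47.6 FPKM in control cells, and Srebf2 had 98.1 and 104 FPKM under overexpression, against 101 and 98.6 FPKM in control cells. These groups overlapped, with log2 fold changes of 0.01 ± 0.09, 0.08 ± 0.08 and 0.02 ± 0.07. Insig2 had 9.09 and 8.40 FPKM under overexpression and 8.75 and 10.3 FPKM in control cells (-0.11 ± 0.08). Scap had 19.9 and 20.1 FPKM under overexpression, against 21.4 and 21.6 FPKM in control cells, below without overlap but not called (-0.10 ± 0.05; limma, adjusted p = 0.364).

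Overexpression was then compared directly with knockdown, which tests the difference between the manipulations. This contrast shares the knockdown libraries with knockdown against control and the overexpression libraries with overexpression against control. Of 33 members 12 were higher under overexpression and 5 lower, 36.4% and 15.2% of members, where 28.1% and 12.4% of all genes were, and 51.5% of members against 40.5% of all genes in either direction. Both overexpression libraries lay above both knockdown libraries for 13 members, where 47.2% of all genes did so, and below both for 7 members, where 24.7% of all genes did. The fatty acid genes Elovl6, Fasn, Acaca and Acly were all higher under overexpression, and Scd1 and Scd2 were not called. Elovl6 had 13.7 and 15.05 FPKM under overexpression and 10.1 and 9.43 FPKM under knockdown (0.51 ± 0.07; limma, adjusted p = 0.000991). Fasn had 39.0 and 41.4 FPKM under overexpression, against 33.1 and 30.8 FPKM under knockdown (0.32 ± 0.06; limma, adjusted p = 0.00311).

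Cholesterol enzymes were called in both directions here too, with the same knockdown libraries as in knockdown against control. Mvk (0.44 ± 0.10), Idi1 (0.31 ± 0.06), Nsdhl (0.41 ± 0.09), Hsd17b7 (0.21 ± 0.05), Sqle (0.19 ± 0.05) and Ebp (0.22 ± 0.07) were higher under overexpression than under knockdown, with limma adjusted p from 0.00371 to 0.0282. Mvk had 9.10 and 10.4 FPKM under overexpression, against 7.51 and 6.32 FPKM under knockdown. Nsdhl had 8.07 and 9.87 FPKM under overexpression and 6.42 and 6.56 FPKM under knockdown. These groups did not overlap. Hsd17b7 had 17.3 and 16.8 FPKM under overexpression, against 14.8 and 14.4 FPKM under knockdown, and Sqle had 98.3 and 99.9 FPKM under overexpression, against 89.7 and 83.6 FPKM under knockdown. Pmvk (-0.52 ± 0.09), Mvd (-0.43 ± 0.09), Lss (-0.40 ± 0.08) and Tm7sf2 (-0.58 ± 0.20) were lower under overexpression, with limma adjusted p from 0.00231 to 0.0467. Tm7sf2 had 6.397 and 11.1 FPKM under overexpression, against 14.8 and 11.6 FPKM under knockdown. Mvk and Pmvk catalyse adjacent phosphorylations and differed in opposite directions. Among the regulators Srebf1 was higher under overexpression (0.35 ± 0.08; limma, adjusted p = 0.0103), as was Srebf2 (0.22 ± 0.07; limma, adjusted p = 0.0329), and Insig1 was lower (-0.28 ± 0.09; limma, adjusted p = 0.0361).

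The 9 members called in this contrast under all 16 alternatives were Elovl6, Fasn, Acaca, Idi1, Mvk and Nsdhl above and Pmvk, Mvd and Lss below. Without knockdown 2 the count was 6 higher and 7 lower, where 22.9% and 10.4% of all genes were. Without overexpression 2 it was 7 higher and 5 lower, where 19.2% and 8.21% of all genes were. After median log ratio scaling it was 7 higher and 6 lower, where 17.9% and 18.0% of all genes were called. The calls that a left-out library ended were those of Acly, Ebp, Hsd17b7, Sqle, Srebf1 and Srebf2, all lost without knockdown 2, and of Insig1 and Tm7sf2, both lost without knockdown 1, as was Ebp. Acly, Ebp, Sqle, Srebf1 and Srebf2 were also lost without overexpression 2, and Hsd17b7, Insig1, Srebf2 and Tm7sf2 without overexpression 1. Leaving out either control library, which changes only the shared spread, ended the calls of Insig1, Srebf2 and Tm7sf2.

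Beyond the 34 members, 108 further genes of lipid synthesis and sterol handling were listed in 6 groups, of which 92 were tested. Under knockdown 17 were higher and 24 lower, 18.5% and 26.1% of those tested, near the 14.8% and 31.3% of all tested genes. The counts of the single lists below stand against the same background. Under overexpression 0 were higher and 1 was lower. Their median log2 fold change was -0.06 under knockdown and 0.03 under overexpression, close to the -0.07 and -0.003 over all tested genes.

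Of 21 tested genes of further fatty acid synthesis and elongation, 4 were higher and 3 lower under knockdown. Acss2, which makes acetyl-CoA from acetate, had 12.5 and 10.1 FPKM in knockdown cells and 6.76 and 7.05 FPKM in control cells (0.63 ± 0.11; limma, adjusted p = 0.00243). Slc25a1, the mitochondrial citrate exporter that supplies Acly, had 89.7 and 80.6 FPKM in knockdown cells, against 59.8 and 61.5 FPKM in control cells (0.48 ± 0.09; limma, adjusted p = 0.0025). Fads6, a member of the fatty acid desaturase family, had 15.1 and 15.1 FPKM in knockdown cells and 11.1 and 10.6 FPKM in control cells (0.45 ± 0.05; limma, adjusted p = 0.000433).

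In the isoprenoid branch, which leads from farnesyl diphosphate to lipid anchors on proteins, dolichol and ubiquinone, 1 of 12 tested genes was higher and 4 were lower. Fnta, the alpha subunit of farnesyltransferase, had 29.8 and 28.0 FPKM in knockdown cells, against 47.9 and 49.1 FPKM in control cells (-0.73 ± 0.05; limma, adjusted p = 7.88e-05). Fntb, the other farnesyltransferase subunit, had 5.91 and 5.86 FPKM in knockdown cells and 8.59 and 7.64 FPKM in control cells (-0.40 ± 0.07; limma, adjusted p = 0.00202). Rabggtb, a subunit of the enzyme that lipidates Rab proteins, had 57.2 and 56.8 FPKM in knockdown cells, against 44.9 and 47.3 FPKM in control cells (0.30 ± 0.05; limma, adjusted p = 0.00145).

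Of 19 genes of SREBP processing and sterol-regulated degradation, 1 was higher and 8 were lower under knockdown. Mbtps1, the site-1 protease that makes the first cut in SREBP, had 18.0 and 16.7 FPKM in knockdown cells and 23.9 and 23.5 FPKM in control cells (-0.43 ± 0.06; limma, adjusted p = 0.000537). Pgrmc1, a membrane haem-binding protein that associates with sterol-synthesising cytochromes, was lower in both manipulations, at 60.3 and 64.4 FPKM under overexpression, 50.2 and 47.7 FPKM under knockdown, and 77.0 and 74.97 FPKM in control cells. Its log2 fold change was -0.28 ± 0.05 under overexpression, with an adjusted p of 0.0445 by limma. Under knockdown it was -0.62 ± 0.05, with an adjusted p of 0.000136 by limma, and the control libraries are the same in each. The overexpression call was lost without any one of the control or overexpression libraries. Faf2, which recruits VCP to pull proteins out of the endoplasmic reticulum, had 14.5 and 14.3 FPKM in knockdown cells, against 18.7 and 19.5 FPKM in control cells (-0.38 ± 0.05; limma, adjusted p = 0.000669).

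A list of electron donors and other genes set beside sterol synthesis had 2 higher and 3 lower of 8 tested genes under knockdown. Ggcx and Lpin2 in this list are not enzymes of sterol synthesis. Ggcx was 1 of the 2 called higher (0.38 ± 0.08; limma, adjusted p = 0.00566). The cytochromes b5 were both lower: Cyb5a had 7.10 and 6.21 FPKM in knockdown cells and 10.1 and 9.93 FPKM in control cells (-0.53 ± 0.07; limma, adjusted p = 0.000669). Cyb5b, the mitochondrial outer membrane form, had 90.8 and 91.7 FPKM in knockdown cells, against 117 and 116 FPKM in control cells (-0.35 ± 0.04; limma, adjusted p = 0.000497). Cyb5r1, a reductase of that family, had 81.3 and 79.4 FPKM in knockdown cells and 51.2 and 64.0 FPKM in control cells (0.48 ± 0.09; limma, adjusted p = 0.00274).

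Of 23 tested genes of cholesterol storage and transport, 7 were higher and 3 lower under knockdown. Lrp1, a large endocytic receptor for apolipoproteins and protease complexes, had 3.43 and 3.39 FPKM in knockdown cells and 1.67 and 1.67 FPKM in control cells (0.72 ± 0.08; limma, adjusted p = 0.000248). Stard5, a sterol-binding relative of Stard4, had 15.1 and 15.6 FPKM in knockdown cells, against 10.1 and 11.5 FPKM in control cells (0.48 ± 0.07; limma, adjusted p = 0.00131). Osbpl10, an oxysterol-binding protein relative, had 1.55 and 1.54 FPKM in knockdown cells and 2.61 and 2.38 FPKM in control cells (-0.46 ± 0.09; limma, adjusted p = 0.00372). Among liver X receptors, their RXR partners and targets, 2 of 9 were higher and 3 lower, including Rxra at 1.20 and 1.64 FPKM in knockdown cells and 2.27 and 2.31 FPKM in control cells, and Lbr, a nuclear membrane protein with sterol C-14 reductase activity, at 24.5 and 23.0 FPKM in knockdown cells and 27.8 and 29.0 FPKM in control cells. Rxrb rose (0.25 ± 0.07; limma, adjusted p = 0.0154) and lost its call without control 1 or knockdown 1. Rxra fell (-0.45 ± 0.11; limma, adjusted p = 0.0104) and lost its call without control 2 or knockdown 1.

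**Figure D5:**
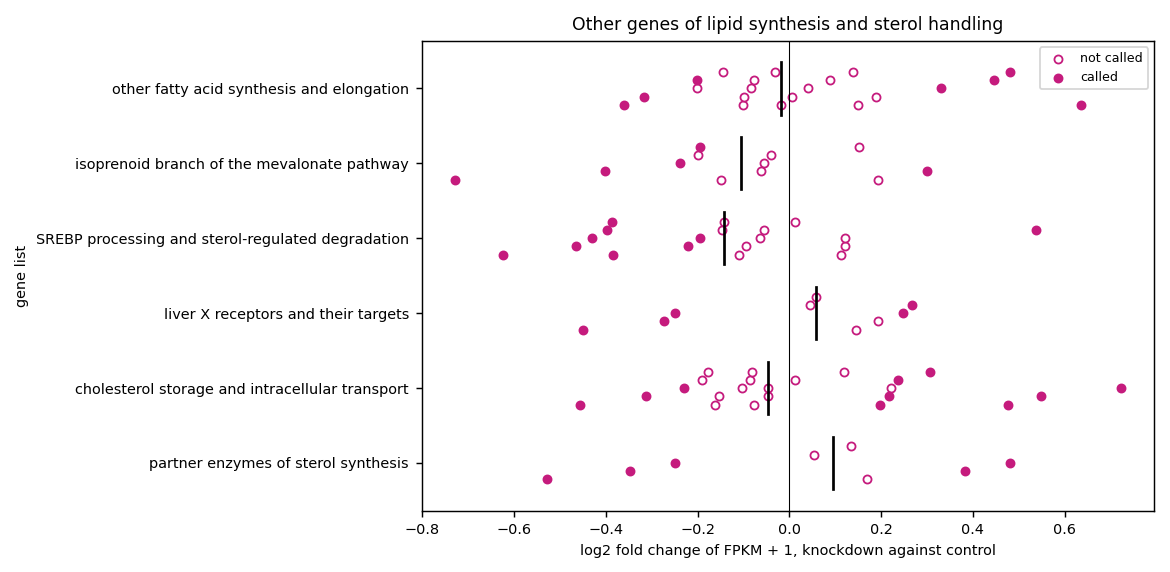
Log2 fold changes of FPKM + 1 in knockdown against control (horizontal axis) for the 92 tested genes outside the 34 members, 1 row per list, with filled points for genes past the adjusted p threshold of 0.05 and a black line at each list's median. Fnta lies lowest at -0.73 and Lrp1 highest at 0.72. The medians run from -0.14 for SREBP processing to 0.09 for the list labelled partner enzymes.

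Some members share exonic sequence with other annotated genes in GENCODE release M21, and whether reads were counted by strand is not known here. Of the 34 members, 12 share exonic bases with another gene. The share was 26.7% for Fdps, 18.3% for Fdft1, 13.2% for Scap, 12.1% for Hmgcs1 and Tm7sf2, 9.22% for Idi1 and at most 5.31% for the others, so values of these genes may include reads of a neighbour.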

How the data were processed

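RNA was extracted from Neuro-2a cells and libraries were made with a stranded mRNA kit, per the labels' protocols. The authors deposited FPKM values per gene symbol and library, 21878 rows. Trimmomatic, HISAT2, Cufflinks, HTSeq and DESeq and build mm10 are named in the submitters' processing notes. Their versions, the annotation, any filter and the use of strand are not stated there. A date replaces the gene symbol in 27 rows, which were kept.

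FPKM divides by the library's total, so a shift in abundant genes moves all values. Absolute depth is unknown. Low values (under 0.3 FPKM) stood in ratios of 1 to 6 reads, within 0.03 on the log2 scale, in 49.8% to 68.4% of rows, and depths relative to control 1 read from them were 0.886 to 1.08. No counting intervals can be given.

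The 10721 genes averaging 1 FPKM or more were fitted as log2(FPKM + 1), which understates changes of low genes, with limma 3.58.1 in R 4.3.3, a mean per group over all 6 libraries and an expression trend, leaving 3 residual degrees of freedom. Calls are at a Benjamini-Hochberg adjusted p under 0.05 over all tested genes. The fit was tested on simulated data with independent errors for each gene, which does not cover shifts shared by many genes of a library. The 16 alternatives covered pseudocounts, filters, scaling, moderation, libraries left out and a replicate block. Python 3.11.15 and matplotlib 3.10.9 drew figures. Promoters are from RefSeq (GRCm38.p6) and gene loci from GENCODE release M21.

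The members and lists were chosen with earlier results of these data known. Values in every library compared are given for members called against control and 5 regulators. They are also given for up to 3 genes of each further list, by smallest p in knockdown against control. Of those further genes, values under overexpression are given only for Pgrmc1, the 1 called in overexpression against control.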

Additional observations from a re-analysis of the deposited data

How the results depend on the processing

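Members called in knockdown against control numbered 13 higher and 4 lower after median log ratio scaling and 12 and 5 after quantile normalization, where Srebf2 turned to 0.0050 (limma, adjusted p = 0.951) and Hsd17b12, not a member but one of the further fatty acid genes and uncalled before, turned to 0.15 and was called (limma, adjusted p = 0.0465). Genes called higher numbered 942 with the filter at 5 FPKM. That filter leaves fewer genes to test, so gene counts at it are not comparable with those at the main filter. Leaving out 1 library gave 4 to 11 members higher and 6 to 10 lower, and 973 to 1546 genes higher and 2325 to 3299 lower. Under overexpression against control members stayed at 0 and 0 in every alternative, while genes called were 9 higher and 0 lower with no filter in limma, 48 higher with the filter at 5 FPKM, 44 lower without the expression trend, and 12 to 80 higher and 2 to 92 lower with 1 library left out. For overexpression against knockdown, members higher were 7 after median log ratio scaling and 6 after quantile normalization, and genes higher 1914 and 1930. Members lower were 3 with no filter, without the trend and with only the 4 libraries of the contrast, genes lower were 802 with the filter at 5 FPKM, and leaving out 1 library gave 6 to 11 members higher and 3 to 7 lower, and 2058 to 2722 genes higher and 789 to 1233 lower. With the replicate block, members under knockdown were 5 higher and 8 lower (Npc2 and Srebf2 were lost), and genes under overexpression 37 higher and 29 lower. The labels do not say that replicate numbers pair libraries, and deviations of equal numbers correlated at -0.12, 0.007 and -0.21 between groups. Pairing changed no other member's call against control. The cause of these shifts was not tested. With 2 libraries a group and absolute depth unknown, small changes may go uncalled.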
